A study of Mus musculus with 3 samples.

Results

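The genes of leukaemia inhibitory factor (LIF) signalling through its receptor and the transcription factor Stat3 were examined in nephron progenitors. They comprised 9 genes, namely the ligand Lif, the receptor subunits Lifr, Il6st, Osmr and Il6ra, the kinases Jak1 and Jak2, the transcription factor Stat3 and the feedback inhibitor Socs3. All probe sets whose single gene symbol in the platform annotation was one of these names were taken, which gave 26 of 45037 probe sets and 9 of 18193 named genes. The samples were 3 arrays of cap mesenchyme, the progenitor layer around the ureteric tips, from E15.5 (Theiler stage 23) CD-1 mouse embryos carrying the transgene Tg(Six2-EGFP/cre)1Amc. About 5 to 10 kidneys were pooled for each sample, dissociated with trypsin and sorted for fluorescence, and all 3 samples formed a single group, with no other group analysed here. The sorted cells are those in which the Six2 transgene was active, and all samples carried it. Embryo sex was recorded as unknown.

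LIF is a secreted cytokine of the interleukin-6 family. It binds a receptor made of the LIF receptor chain, encoded by Lifr, and the shared signal-transducing chain gp130, encoded by Il6st. Janus kinases attached to these chains phosphorylate Stat3, which enters the nucleus and switches on target genes, among them Socs3, whose protein in turn blocks the receptor complex. In the kidney, LIF made by the ureteric bud can induce isolated mesenchyme to form epithelium, and LIF is used to sustain nephron progenitors in culture.

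Values are linear array signals, 1 for each probe set (a group of short probes against one transcript region) on each array. The background level of an array was the 95th percentile of 150 probe sets for sensory receptor, hair and mucosal defence genes, at signals of 197, 186 and 201 in pools 1, 2 and 3. A probe set was called above background where the mean of its log2 distance from that level over the 3 pools was above 0 in limma's one-sided test, at a Benjamini-Hochberg adjusted p under 0.05 over all 45037 probe sets. A gene was called where any of its probe sets was. Signals of different probe sets cannot be ranked against each other, because probes differ in affinity. The labels do not say whether the pools came from separate litters, so the spread between pools may not be that between litters. The p-values rest on the spread between these pools, moderated by limma with the variances of all probe sets. They take the background level of each array as known, so error in that level is not in them. The number of arrays limits the precision.

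The receptor pair for LIF, both kinases, Stat3 and Socs3 were above background, and the ligand and the receptor chains for related cytokines were not. Of the 9 genes 6 were called, beside 54.4% of all named genes and 70.2% of the 8154 genes that, like these, had 2 to 4 probe sets. The share of called genes was thus near that of genes with a like number of probe sets. Of the 26 probe sets 13 were called, beside 47.2% of all single-gene probe sets and 41.5% of all probe sets tested. The median distance of the brightest probe set from background was 3.27 log2 units over the 9 genes, 2.70 over genes with 2 to 4 probe sets and 1.20 over all named genes, and this describes probe sets of unlike affinity. Called and uncalled probe sets were found together in 4 of the 6 called genes and in 61.5% of called genes with 2 to 4 probe sets. Where the median of a gene's probe sets was tested in place of any of them, 4 of the 9 genes were called, beside 46.6% of all named genes, and Il6st (adjusted p = 0.0596, limma) and Stat3 (adjusted p = 0.0558, limma) were not.

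**Figure D1:**
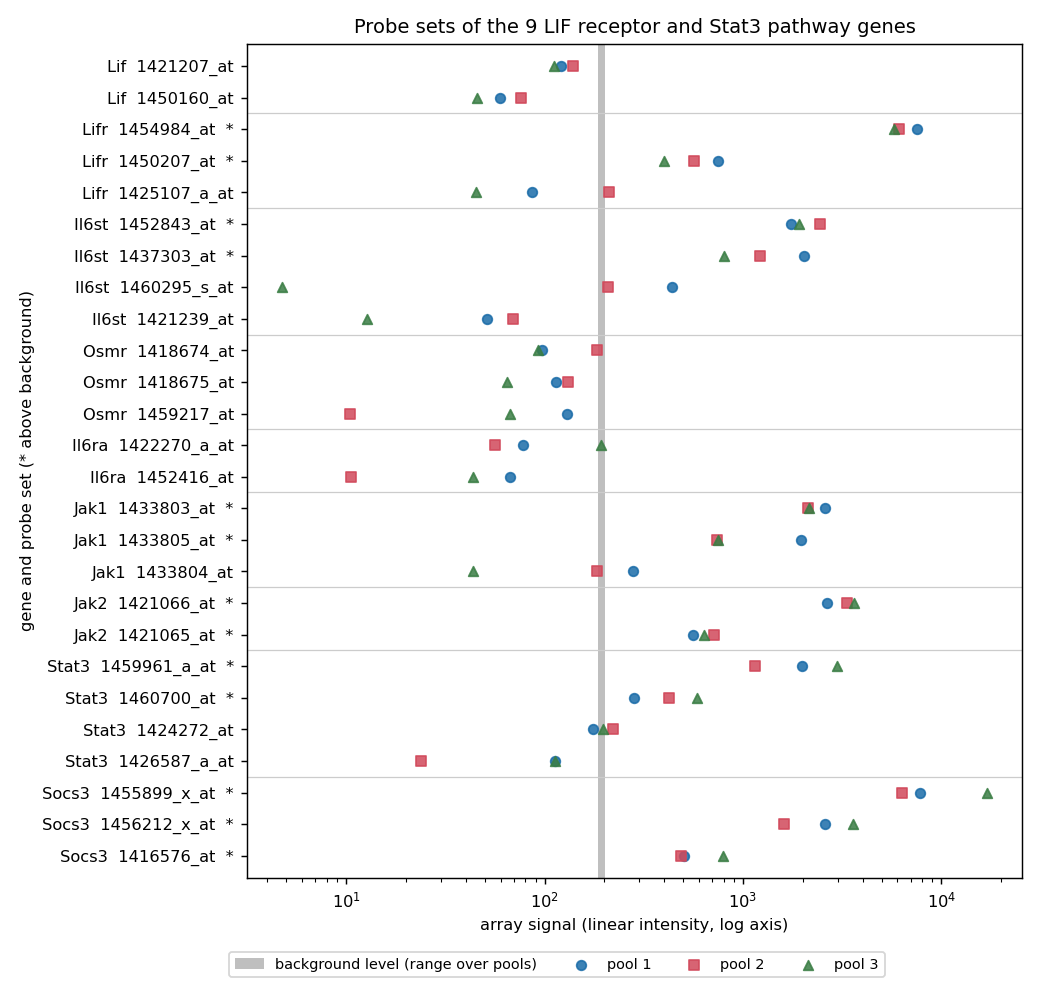
Array signal (linear intensity on a log axis) of the 26 probe sets in each of the 3 pools, 1 row per probe set, with the background level of the arrays (186 to 201) as a grey band and an asterisk on the 13 probe sets called above background. Every called probe set lies to the right of the band in all 3 pools, and no probe set of Lif, Osmr or Il6ra is called.

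Lif, the ligand, was not above background on either probe set. Signals of 1421207_at were 120.5, 139 and 112 in pools 1, 2 and 3, and those of 1450160_at were 59.6, 76.0 and 45.7. All 6 values lay under the background level of their array, so neither probe set passed the test (log2 distance -0.59 ± 0.33 and -1.48 ± 0.34, SE, n = 3). Probes of low affinity also give low signals, so the transcript may still be present.

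Lifr, which encodes the chain that binds LIF, was called on 2 of its 3 probe sets. Probe set 1454984_at read 7562, 6082 and 5766 in pools 1, 2 and 3 (mean 6470.2 ± 959, SD, n = 3). This was 4.94 ± 0.13 (SE) log2 units over background (adjusted p = 2.1e-08, limma), and the pools differed by 1.31-fold at most. Probe set 1450207_at read 752, 568 and 402, which was 1.44 ± 0.23 log2 units over background (adjusted p = 6.0e-04, limma). Its call was lost when the background level was set at the 99th percentile (adjusted p = 0.327, limma). The third, 1425107_a_at, read 86.3, 212 and 44.9 and was over the background level in pool 2 only.

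Il6st encodes gp130, the chain that the whole cytokine family shares for signalling. Probe set 1452843_at read 1738, 2457 and 1907 in pools 1, 2 and 3, 3.27 ± 0.15 (SE, n = 3) log2 units over background (adjusted p = 4.2e-07, limma). Probe set 1437303_at read 2028, 1222 and 798, 2.60 ± 0.25 log2 units over background (adjusted p = 3.2e-05, limma). Both were over background in every pool, but their order of pools differed, with the highest signal in pool 2 on the first and in pool 1 on the second. The other probe sets of the gene were not called. Among these 1460295_s_at read 441, 209.8 and 4.74, with pool 3 under the background level, and 1421239_at read 51.5, 69.2 and 12.8.

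Osmr and Il6ra encode the chains that give gp130 its response to oncostatin M and to interleukin-6. None of the 3 probe sets of Osmr was called, and the brightest, 1418674_at, read 96.9, 184 and 92.2. Neither probe set of Il6ra was called, at 77.8, 55.9 and 193 on 1422270_a_at and 66.7, 10.6 and 43.8 on 1452416_at. All 15 signals of the 2 genes were under the background level of their arrays. At an unadjusted p under 0.05 in limma, 0 of the 7 probe sets of Lif, Osmr and Il6ra passed. The mean log2 distances ran from -0.64 to -1.62 for Osmr and from -0.91 to -2.05 for Il6ra.

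The kinases that act beneath the receptor were called. Jak1, the kinase on which gp130 signalling mainly depends, read 2595, 2120.0 and 2154 on 1433803_at, 3.45 ± 0.13 (SE, n = 3) log2 units over background (adjusted p = 1.1e-07, limma). On 1433805_at it read 1964, 742 and 752, so that pool 1 stood 2.65-fold over the lowest pool while the others lay close together (adjusted p = 1.3e-04, limma). Its remaining probe set, 1433804_at, read 278, 184 and 43.4 and was not called. Jak2, which also serves many other cytokine receptors, was called on both of its probe sets. Signals were 2654, 3346 and 3619 on 1421066_at (3.93 ± 0.14 log2 units over background; adjusted p = 7.7e-08, limma). They were 562, 716 and 639 on 1421065_at (1.63 ± 0.18; adjusted p = 7.3e-05, limma), whose call was lost with background set at the 99th percentile (adjusted p = 0.068, limma).

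Stat3, the transcription factor of the pathway, was called on 2 of 4 probe sets. Probe set 1459961_a_at read 1976, 1151 and 2965 in pools 1, 2 and 3, 3.18 ± 0.23 (SE, n = 3) log2 units over background (adjusted p = 5.6e-06, limma). Probe set 1460700_at read 283, 424 and 585, 1.03 ± 0.25 log2 units over background (adjusted p = 0.00669, limma). Both were highest in pool 3. The second lost its call without pool 2 (adjusted p = 0.0691, limma) and with background set at the 99th percentile (adjusted p = 1, limma). The _a_at suffix marks a probe set that can match several transcripts of a gene, and without such probe sets the call of Stat3 rested on 1460700_at alone. The others were not called, at 176, 222 and 196.5 on 1424272_at and 113, 23.7 and 113 on 1426587_a_at.

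Socs3, the inhibitor that Stat3 induces, was called on all 3 of its probe sets. Signals were 7819, 6349 and 16996 on 1455899_x_at, 2581, 1611 and 3562 on 1456212_x_at, and 507, 486 and 797 on 1416576_at, each in pools 1, 2 and 3. Distances from background were 5.49 ± 0.25, 3.56 ± 0.20 and 1.51 ± 0.20 log2 units (SE, n = 3), with adjusted p of 3.2e-07, 1.2e-06 and 2.5e-04 (limma). Pool 3 was the highest and pool 2 the lowest on every one (after quantile normalization pool 1 was the lowest on 1416576_at), and pool 3 stood over pool 2 by 2.68-fold, 2.21-fold and 1.64-fold. The _x_at suffix marks probe sets that may also match other genes. The probe set without it, 1416576_at, had the smallest distance from background and lost its call at the 99th percentile (adjusted p = 0.185, limma).

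The promoter of Socs3 is shown because it was the only one of the 10 promoter windows of the 9 genes (2 for Lifr) that held a general STAT recognition motif. The windows are the 250 bases before a gene's start in RefSeq (GRCm38.p6), and all 9 genes were found in the promoter table by their symbols. The Socs3 window lies at chr11:117969367-117969616 on the minus strand, upstream of the gene, and is printed 5′ to 3′ with the match to TTCNNNGAA in capitals.
Socs3: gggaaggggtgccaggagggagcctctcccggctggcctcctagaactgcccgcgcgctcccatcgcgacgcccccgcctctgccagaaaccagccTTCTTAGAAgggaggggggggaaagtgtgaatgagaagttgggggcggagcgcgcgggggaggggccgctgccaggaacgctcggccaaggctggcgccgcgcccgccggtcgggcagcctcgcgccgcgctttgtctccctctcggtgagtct
The match spans positions -154 to -146 from the start. The motif reads the same on both strands and was held by 7.02% of 32851 promoter windows of the same length. The narrower form TTCCNGGAA, whose matches are also matches of the first, was in 0 of the 10 windows and in 0.913% of all. A match is a description of these letters, and whether Stat3 binds there was not measured.

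Differences between pools were wider in median on the called probe sets of these genes than on all called probe sets. Of the 13 called probe sets 6 had a range of at least 2-fold between pools, beside 13.3% of all called probe sets, and the median range was 1.87-fold beside 1.41-fold. These 6 were 1 probe set each of Il6st and Jak1, and 2 each of Stat3 and Socs3. The count was 3 without pool 1, 3 without pool 2 and 1 without pool 3, and 3 without the probe sets that can match several transcripts or genes. The 13 probe sets belong to 6 genes, so they are not separate observations. On each called gene's brightest probe set, ranges were 1.31-fold for Lifr, 1.41-fold for Il6st, 1.22-fold for Jak1 and 1.36-fold for Jak2. They were 2.58-fold for Stat3 and 2.68-fold for Socs3, and these alone reached 2-fold there. The 2 called probe sets of Lifr and the 2 of Jak1 were highest in pool 1, whereas the 2 of Stat3 and the 3 of Socs3 were highest in pool 3. After quantile normalization of the arrays the highest pool of each of these 9 probe sets was the same, while the lowest pool moved from 2 to 3 on both of Jak1 and from 2 to 1 on 1416576_at of Socs3. Of the 4 of Il6st and Jak2, 2 were highest in pool 2, 1 in pool 1 and 1 in pool 3. Over all 13, 5 were highest in pool 1, 2 in pool 2 and 6 in pool 3, near the shares among all called probe sets (36.0%, 26.5% and 37.5%). The pools are replicates of 1 group, so no test was made between them.

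Immediate-early genes, which cells switch on within minutes of a stimulus such as dissociation, were also mostly above background in these cells. Of the 18 genes of an immediate-early and dissociation stress list 16 were called, beside 54.4% of all named genes and 70.2% of those with 2 to 4 probe sets. Most genes of the list had 1 probe set, so the second share is not matched to them. The calls of Klf2 and Ier3 were lost with background set at the 99th percentile, and that of Klf2 also without pool 1 or without pool 3. Klf6 lost its call when the median of its probe sets was tested. On their brightest probe set 11 of the 16 were highest in pool 3, beside 43.0% of all called genes. Of the rest, 4 were highest in pool 1 and 1 in pool 2. The median deviation of the 16 genes from their mean over the pools was -0.14, -0.12 and 0.30 log2 units in pools 1, 2 and 3. The summed signal of all 18 was 148319, 185471 and 182438, and none was at 0. Egr2, a transcription factor gene of this class, read 3188, 2561 and 6466, with pool 3 the highest. The heat shock gene Hspa1b ran the other way, at 11489, 7087 and 3644. The part of dissociation in the Socs3 and Stat3 signals was not tested.

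**Figure D2:**
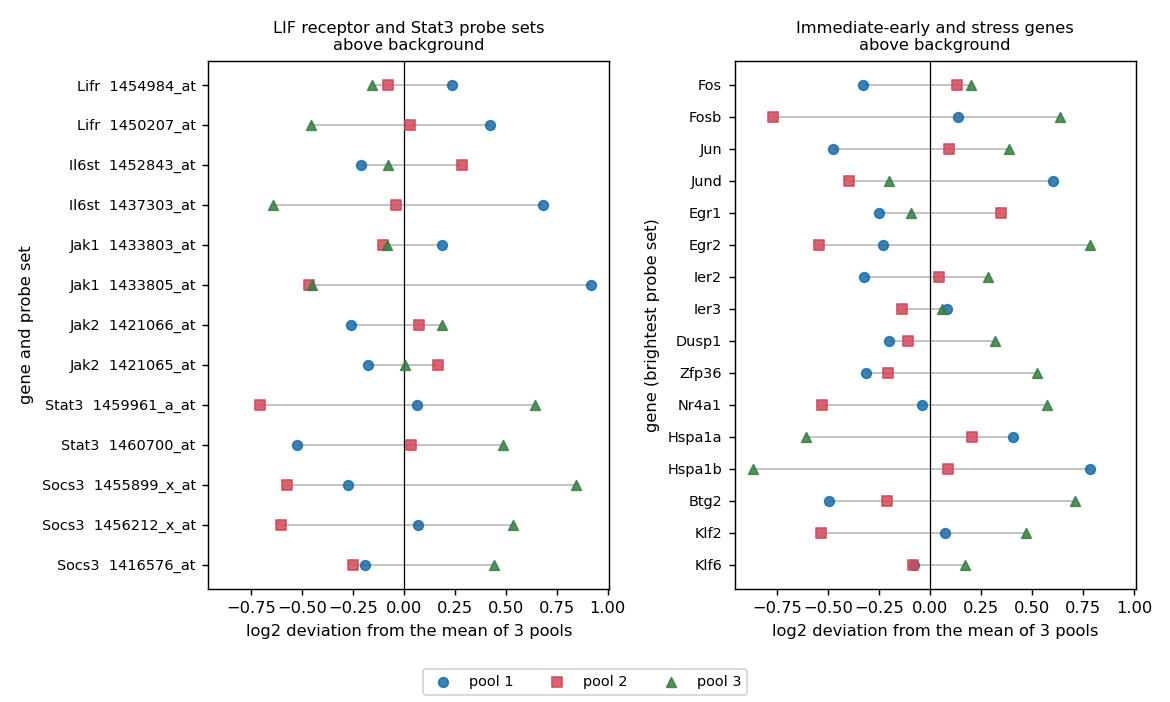
Deviation of each pool's log2(signal + 16) from the mean of the 3 pools, for the 13 called probe sets of the 9 genes (left) and for the brightest probe set of the 16 called immediate-early and stress genes (right), with a line from the lowest to the highest pool. Pool 3 is the highest on all 5 called probe sets of Stat3 and Socs3 and on 11 of the 16 genes at right.

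Other ligands and receptors of the interleukin-6 family were mostly not above background, whereas 54.4% of all named genes were. Of 6 measured ligands 1 was called, Ctf1, which encodes cardiotrophin-1, a cytokine that also signals through Lifr and gp130. It read 1294, 1652 and 1772 in pools 1, 2 and 3 (2.90 log2 units over background; adjusted p = 6.8e-07, limma). Signals of Il6 were 7.11, 2.52 and 3.43, and those of Il11 5.54, 24.8 and 5.06. Osm, which encodes oncostatin M, read 140, 182 and 170, close under the background level, and Clcf1 (196, 104 and 214) straddled it. Of 3 measured receptor genes 0 were called by limma, and 0 passed at an unadjusted p under 0.05. Cntfr, which encodes the ciliary neurotrophic factor receptor, came nearest with 309, 168.5 and 306 (adjusted p = 0.287, limma), while Il27ra stayed between 10.4 and 17.5.

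Of 7 other Janus kinase and STAT genes 2 were called, beside 54.4% of all named genes. Tyk2, another kinase that can associate with gp130, read 1010, 834 and 1100.1 (2.24 log2 units over background; adjusted p = 3.6e-06, limma). Stat5b, a STAT of growth hormone and other cytokine receptors, read 1003, 779.6 and 1109 (2.20 log2 units; adjusted p = 5.2e-06, limma). Stat6, the factor of interleukin-4 signalling, read 319, 207 and 462 and did not pass (adjusted p = 0.0641, limma). It was called with background at the 90th percentile and when probe sets with a mean signal under 50 were left out. Jak3, the kinase of lymphoid cytokine receptors, read 198, 322.5 and 263 (adjusted p = 0.248, limma), and Stat2, Stat4 and Stat5a had mean signals of 105, 33.0 and 108.

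Of 15 genes for inhibitors and phosphatases that act on the pathway 13 were called, beside 54.4% of all named genes and 70.2% of those with 2 to 4 probe sets. The call of Socs6 was lost without probe sets that can match several genes or transcripts, and that of Ptpn11 when the median of its probe sets was tested. Among the relatives of Socs3, Socs5 read 10106, 9314 and 9878, Socs7 9581, 8113 and 9001, Socs4 3637, 2878 and 2642, and Cish 782, 717 and 942. Socs1, the member induced by interferon, read 17.4, 56.1 and 27.9, and Socs2 read 220.1, 158 and 228, and neither was called. All 4 genes of the PIAS family, whose proteins bind activated STATs, were called, as with Pias2 at 3639, 3336 and 5464. So were the tyrosine phosphatase genes Ptpn2 (23671, 25170.2 and 21462), which dephosphorylates Janus kinases and STATs, and Ptpn1 (4607.5, 3230.2 and 3398). Ptpn11 encodes SHP2, the phosphatase that links gp130 to the ERK cascade, and read 19277, 19250 and 16517 on 1 called probe set of 3.

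The ERK and PI3K branch, a further output of gp130, was called in all 11 measured genes of 16 listed, beside 54.4% of all named genes. Gab1, an adaptor that binds SHP2, read 9962, 11167 and 10374, Grb2 1578, 1838 and 1878, and Map2k1, the kinase above ERK, 12316, 12334 and 13544. Pik3ca, which encodes a catalytic subunit of PI3 kinase, read 5807, 8736 and 10787. Gab2 lost its call without probe sets that can match several genes or transcripts. These genes serve many receptors besides those for LIF.

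Genes known as Stat3 targets in other cells were called in 13 of 18 cases (72.2%), near the 70.2% of genes with 2 to 4 probe sets and beside 54.4% of all named genes. Several genes of the list had 1 probe set and Mcl1 had 6, so the 70.2% is not matched to all of them. The calls of Cebpb and Cebpd were lost with background set at the 99th percentile, and those of Cebpb, Cebpd and Bcl2l1 when the median of the probe sets was tested. The survival gene Mcl1 read 22483, 25495 and 25653, the kinase gene Pim3 14558.5, 16953 and 15924, and Myc 9184, 11466 and 9183 in pools 1, 2 and 3. Klf4, a target through which LIF acts in embryonic stem cells, read 2699, 2818 and 5165 (4.02 log2 units over background; adjusted p = 4.3e-07, limma). Pim1 read 860, 1355 and 1902, and Cebpd 475, 611 and 754. Not called were Bcl3 (67.3, 15.3 and 11.0), Junb (124, 119 and 186), Klf5 (268, 202 and 108), and Tfcp2l1 and Gbx2, both known from LIF-dependent embryonic stem cells, at mean signals of 122 and 57.6. Of the 13 called, 6 were highest in pool 3, 4 in pool 2 and 3 in pool 1. The number in pool 3 was near the share among all called genes (43.0%). After quantile normalization 7 of the 13 (53.8%) were highest in pool 3, beside 43.7% of all called genes. Most of these genes are also controlled by other factors.

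**Figure D3:**
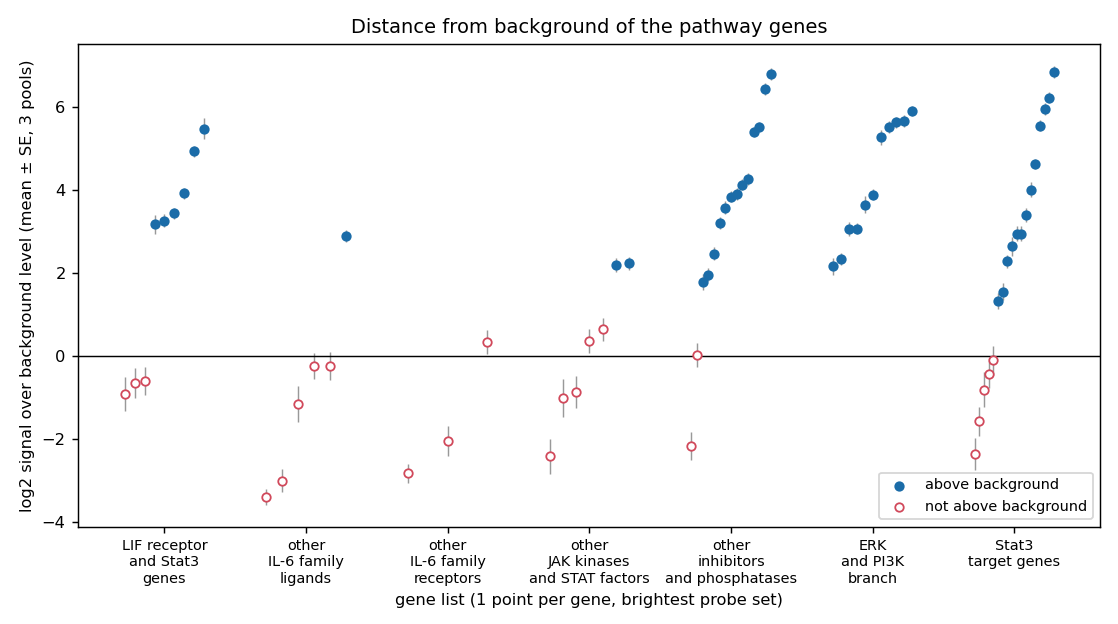
Log2 distance of each gene's brightest probe set from the background level (vertical axis; mean over 3 pools, bars are the SE of limma), for the 9 genes and 6 lists of other genes of the pathway, with filled points called above background and open points not called. The 5 other ligand genes not called and all 3 other receptor genes lie near or under 0, while all 11 genes of the ERK and PI3K branch lie over 2.

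Over these 6 lists 40 of 60 measured genes were called (66.7%), beside 54.4% of all named genes and 70.2% of those with 2 to 4 probe sets. Genes of the lists had from 1 to 6 probe sets, so the 70.2% is not matched to all of them. The remaining 11 of the 71 listed genes were not analysed here. No set test was made. Because the lists and the 9 genes were chosen with earlier results of these data known, the counts are descriptions.

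Marker genes of cap mesenchyme were called in 8 of 8 cases, beside 54.4% of all named genes, with Crym at 22012, 26500.3 and 22956.5. The call of Osr1 was lost with background set at the 99th percentile. Of stromal markers, 6 of 8 were called (75%), beside the same 54.4% and 70.2% of genes with 2 to 4 probe sets. Foxd1 read 7370, 7389 and 7938, and the stromal markers had a summed signal of 34585, 32572 and 27314. The calls of Pdgfrb and Acta2, named after their values were seen, were lost without probe sets that can match several genes or transcripts. They were also lost when the median of the probe sets was tested. Called were also 1 of 7 ureteric bud markers (Wnt11), 1 of 8 macrophage markers (Laptm5) and 1 of 3 podocyte markers (Podxl), beside 54.4% of all named genes. Each of these calls was lost with background set at the 99th percentile. Of 8 endothelial and 5 erythroid markers 0 were called by limma, beside the same 54.4%, and 1 (Esam) and 0 passed at an unadjusted p under 0.05. Esam was called under 3 alternatives (background at the 90th percentile, the filter on low signals and the median of probe sets), and Hba-a2 without pool 1. No marker of any list was at 0. Summed signals, mostly of markers not above background, were 979, 564 and 1371 for the ureteric bud and 1059, 1041 and 1453 for macrophages. The part of stromal and other cells in the signals of the 9 genes was not tested. In bulk RNA of sorted cells, fewer cells holding a transcript and less of it in each cell cannot be told apart.

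The RNA was amplified in 2 rounds, and control probe sets at the 3′ and 5′ ends of a transcript differed on every array. The log2 ratio of 3′ to 5′ signal was 4.36, 5.05 and 4.08 for Gapdh and 1.82, 3.28 and 3.18 for Actb in pools 1, 2 and 3. It was 1.84, 3.15 and 2.57 for Tfrc and 1.66, 2.09 and 2.65 for Pcx. The ratio thus also differed between pools, and its part in the differences between pools of the 9 genes was not tested. The part of the difference between 3′ and 5′ ends in the disagreement between probe sets of 1 gene was not tested, since the positions of the probes were not used here.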

How the data were processed

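The authors deposited linear intensity signals of 3 arrays, made with GCOS (Affymetrix software), per the submitters' processing notes. After removal of the lowest and highest 2% each array had a mean signal of 1500.0, so arrays had been scaled to a common mean, and median signals were 222, 197 and 184. Of 45101 probe sets 34945 had 1 gene symbol, 932 several, 9160 none, and 64 were controls. The 9 genes matched the RefSeq gene table by Entrez identifier, and the promoter table by symbol. From log2(signal + 16) the background level of each array was subtracted, and the mean over arrays was fitted to 45037 probe sets with moderated variances that follow intensity (limma 3.58.1, R 4.3.3). The pseudocount understates weak differences. The test was first tested on simulated data. The brightest probe set represented a gene in the lists. Likeness of profiles was not computed over 3 arrays.

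Members and lists were chosen with earlier results of these data known. All genes of the pathway and stress lists could be named, and from each cell type list those with the 3 largest moderated statistics and the smallest. Pdgfrb and Acta2 were named in addition, after their values were seen. Alternatives were 2 pseudocounts, 2 background percentiles, quantile normalization, a filter on low signals, leaving out probe sets that can match several transcripts, no trend, the median probe set of a gene, and leaving out each pool. Python 3.11.15 served for tables and plots.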

Additional observations from a re-analysis of the deposited data

How the results depend on the processing

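The calls of the 9 genes were the same in 106 of 108 values over 12 alternatives. The exceptions arose when a gene was called by the median of its probe sets, where Il6st (0.99 log2 units over background, adjusted p = 0.0596, limma) and Stat3 (0.52, adjusted p = 0.0558, limma) did not pass and 4 of the 9 genes were called, beside 46.6% of all named genes. The number of pathway genes called ran from 34 to 42 around 40, and that of all probe sets from 13326 to 19944 around 18699. The count of called probe sets with a 2-fold range, 6, was 3 when probe sets matching several transcripts were left out and ran from 1 to 3 when a pool was left out, where 2 pools allow a smaller range than 3. It was 6 under quantile normalization and the filter on low signals. No paired analysis was possible because all samples belong to 1 group. Signals near the background level limit the calls of single probe sets.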

Other observations

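The immediate-early genes held values beyond those given above. Fos, which encodes a subunit of the AP-1 transcription factor, read 27809, 38299.5 and 40057 in pools 1, 2 and 3, its partner Jun 6062, 8995 and 11044, and Egr1 52565.5, 79613 and 58462. Ier2 read 20188, 26124 and 30875, Zfp36, which encodes a protein that destabilises messenger RNA, 2119, 2287 and 3810.0, and Btg2 2633, 3209 and 6082. Atf3, a stress-induced transcription factor gene, was not called at 180, 165 and 482.5 (adjusted p = 0.444, limma). Hspa1a, like Hspa1b, was lowest in pool 3, at 3245, 2829 and 1602, so the list did not move as a whole. After quantile normalization 13 of the 16 called genes were highest in pool 3, beside 43.7% of all called genes.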
